A study of Bos taurus with 12 samples.

Results

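Core pluripotency regulators are the transcription factors, RNA-binding proteins and companion genes that keep an embryonic stem cell able to form all tissues. The 9 examined here are POU5F1, NANOG, SALL4, PRDM14, LIN28A, TRIM71, TERT, GDF3 and DPPA4. They were taken from the raw count table as the entries whose Entrez identifier carries one of these bovine symbols, and the choice of symbols was made with earlier results of these data known. Each symbol matched 1 entry, so the set holds 9 of the 18885 entries kept, out of 19285 deposited, and all 9 passed the filter on low counts that left 13920 genes for testing.

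In mouse and human embryonic stem cells, POU5F1 and NANOG work with SOX2 as a circuit in which each factor binds the genes of the others and many further targets. SALL4 and PRDM14 bind many of the same sites and recruit repressive complexes that hold differentiation genes down. LIN28A and TRIM71 act on RNA and oppose the let-7 microRNAs, TERT keeps telomeres long, GDF3 is a secreted ligand of the NODAL family, and DPPA4 is a chromatin protein of early embryos. SOX2 was not analysed here.

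The data are poly-A RNA sequencing of bovine embryonic stem cells, with 3 libraries for each of the groups 1/7MC+Pyr+FGF, 1/7MC+Pyr, 1/7MC and MC, 12 in total. The title sets the study on feeder layers of low density and names the supplements, pyruvate (Pyr) and a recombinant human form of basic fibroblast growth factor (FGF). All 12 libraries come from 1 line, F7, labelled as wild type, and the MC libraries carry the treatment label NC. The labels explain neither MC nor the fraction, and give no dose, time, passage or feeder species. No label says whether the replicates are separate cultures, and the p-values therefore reflect the spread among these samples alone, which may be technical.

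Library totals were 27373759 to 44440972 counts, and the 9 genes together took 0.138% to 0.24% of the kept counts. The gene models behind MC replicates 2 and 3 differ from those of the remaining 10 libraries. Of 61 Entrez identifiers that stand in more than 1 entry, 53 carried differing counts in those 2 libraries and 0 in each of the others. The comparisons of the 9 genes with MC are therefore repeated on MC replicate 1 alone, a single library whose spread is taken from the other groups. For marker lists, partner lists and other named genes the repeat is given only where stated. 1/7MC+Pyr+FGF replicate 1 stands apart from its group in several of the genes below. It is the deepest library, and its summed fibroblast markers, 21799 CPM, are the lowest of the 9 libraries outside MC. CPM here is the count per 1000000 kept counts of a library, scaled by trimmed-mean (TMM) factors. The stem cell markers POU5F1, NANOG, SALL4, LIN28A, CDH1 and EPCAM were present in all 12 libraries, with the lowest group mean at 9.94 CPM for EPCAM in 1/7MC+Pyr+FGF. POU5F1, NANOG, SALL4 and LIN28A are themselves among the 9 genes. The fibroblast marker COL1A1 was present in all 12 libraries as well, with its lowest group mean at 1200 CPM in MC. Presence of markers therefore does not settle what the cells were.

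Per unit of gene length, the 9 genes spread over more than 3 orders of magnitude, and POU5F1 and LIN28A stood far above the rest. The length-scaled level, rescaled to the same sum of 1000000 in each library, averaged 2034 ± 238 in 1/7MC+Pyr+FGF, 2224 ± 47.9 in 1/7MC+Pyr, 1488 ± 125 in 1/7MC and 1967 ± 154 in MC for POU5F1 (SD, n = 3 each). For LIN28A it averaged 1367 ± 180 in 1/7MC+Pyr+FGF, 1438 ± 77.5 in 1/7MC+Pyr, 1045 ± 20.6 in 1/7MC and 1840.2 ± 68.8 in MC. These levels place both genes between the 99.3 and the 99.7 percentile of the entries in every group. SALL4, PRDM14 and NANOG followed with group means of 46.0 to 153 on the same scale. TRIM71 lay at 11.5 to 31.2, TERT and GDF3 between 2.06 and 4.24, and DPPA4 below 1 in all 4 groups. Of the 9 gene lengths, 5 are multiples of 3, as coding lengths are, among them the 618 bases of LIN28A and the 1083 bases of POU5F1. The effect of that on the levels per length was not tested.

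POU5F1 (ENSBTAG00000021111) encodes OCT4, the factor without which the mouse embryo forms no pluripotent cells. Its level was 1389.9, 1016 and 1044 CPM in 1/7MC+Pyr+FGF, 1127, 1192 and 1178 CPM in 1/7MC+Pyr, 848, 671 and 825 CPM in 1/7MC, and 1120.2, 1073 and 1087 CPM in MC. All 3 1/7MC libraries lay below the other 9, which ran from 1016 to 1389.9 CPM. NANOG (ENSBTAG00000020916), the homeodomain factor that stabilises the pluripotent state, had 113, 80.2 and 78.0 CPM in 1/7MC+Pyr+FGF and 62.0, 81.2 and 75.8 CPM in 1/7MC+Pyr. It had 43.3, 37.5 and 40.5 CPM in 1/7MC and 34.1, 40.3 and 40.9 CPM in MC. The 6 libraries with pyruvate were all above the 6 without it, and 1/7MC and MC overlapped. 1/7MC+Pyr+FGF replicate 1 was the highest of all 12 libraries for POU5F1 and for NANOG. Both genes have processed pseudogenes in human, and how reads matching several places were counted is not given in the sources used here, so their levels carry that uncertainty.

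SALL4 (ENSBTAG00000003101), a zinc-finger factor that binds the NuRD deacetylase complex, had 329, 437 and 399 CPM in 1/7MC+Pyr+FGF and 410.4, 404 and 410.5 CPM in 1/7MC+Pyr. It had 277, 254 and 245 CPM in 1/7MC, and 496, 407 and 393 CPM in MC. 1/7MC was again below every other library, and 1/7MC+Pyr+FGF replicate 1, the highest for POU5F1, was the lowest of its own group here. PRDM14 (ENSBTAG00000000060), a zinc-finger repressor of FGF signalling and of DNA methylation genes in mouse, had 129.7, 146 and 126 CPM in 1/7MC+Pyr+FGF and 117, 104 and 116 CPM in 1/7MC+Pyr. It had 59.2, 57.0 and 62.8 CPM in 1/7MC and 89.6, 97.6 and 93.2 CPM in MC. No 2 groups overlapped for PRDM14, which ordered them with 1/7MC lowest, then MC, 1/7MC+Pyr and 1/7MC+Pyr+FGF.

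**Figure D1:**
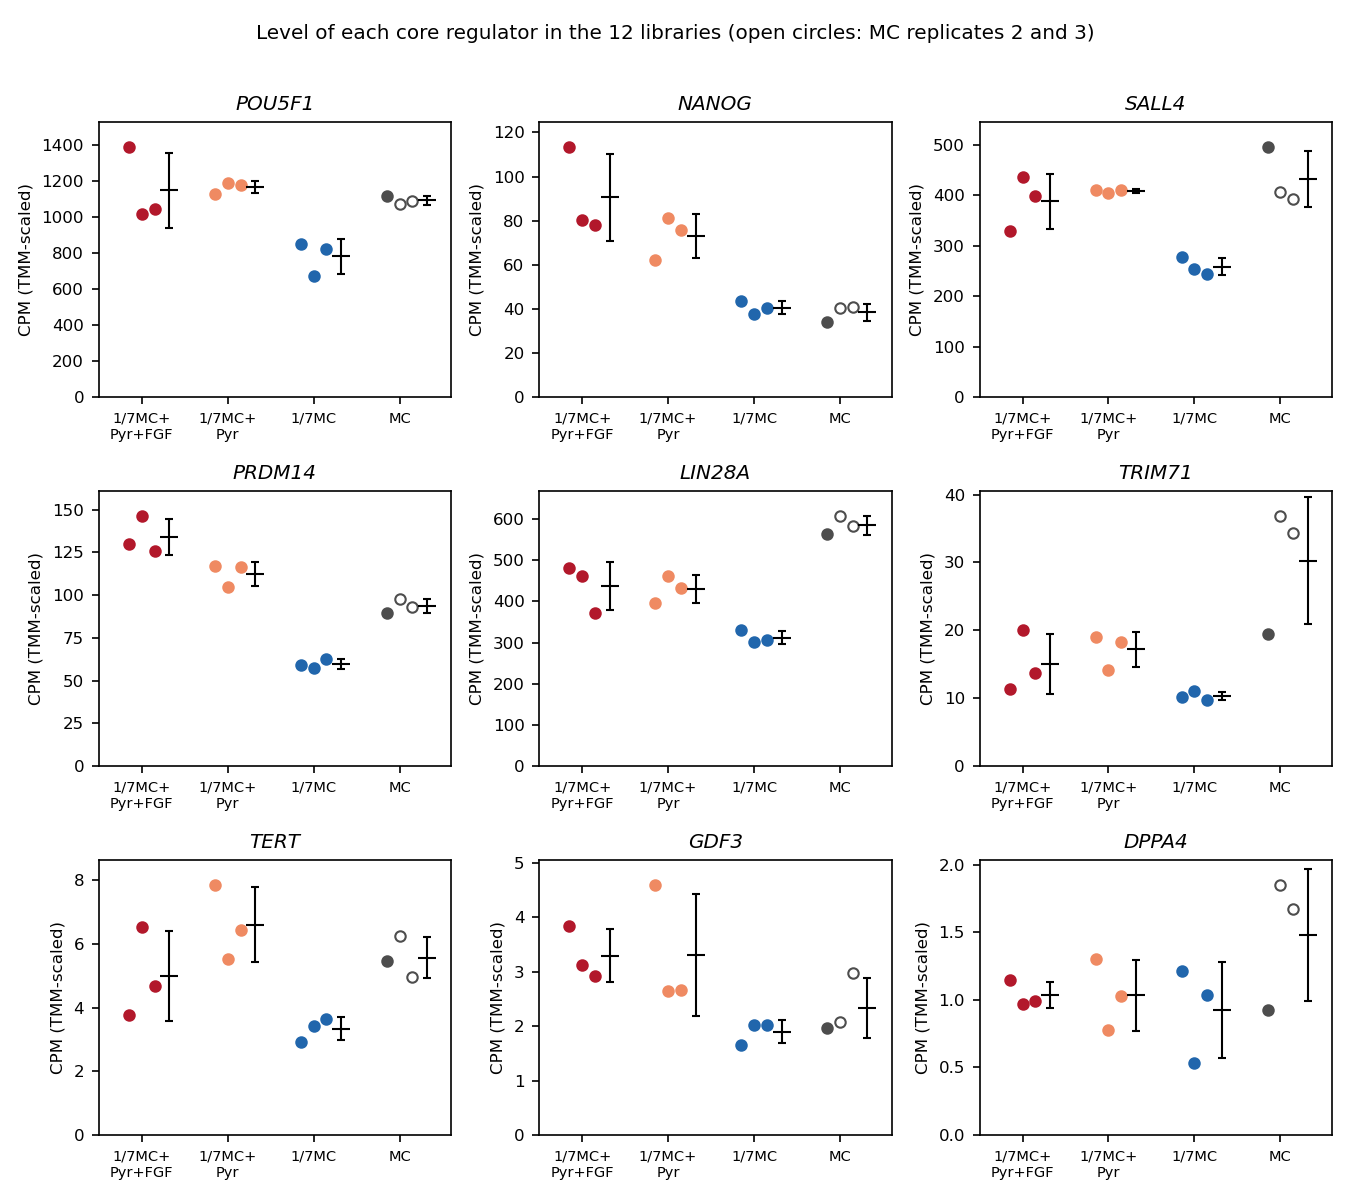
Level of each of the 9 genes (CPM, TMM-scaled, linear axis from 0) in every library, by group. Points are libraries, open circles are MC replicates 2 and 3, and bars give the mean ± SD (n = 3). 1/7MC holds the lowest POU5F1, SALL4, PRDM14 and LIN28A values of all 12 libraries, whereas for NANOG it lies with MC, at 37.5 to 43.3 CPM against 34.1 to 40.9 CPM.

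LIN28A (ENSBTAG00000040497) binds let-7 precursors and blocks their maturation. It had 482, 461 and 372 CPM in 1/7MC+Pyr+FGF, 395, 463 and 433 CPM in 1/7MC+Pyr, 329.7, 301 and 307 CPM in 1/7MC, and 563, 608 and 584 CPM in MC. MC was the highest group and 1/7MC the lowest, with the 2 supplemented groups overlapping each other in between. TRIM71 (ENSBTAG00000022744), an RNA-binding protein of the TRIM ubiquitin ligase family and a let-7 target in worm and mouse, had 11.3, 20.0 and 13.7 CPM in 1/7MC+Pyr+FGF and 19, 14.2 and 18.3 CPM in 1/7MC+Pyr. It had 10.1, 11 and 9.79 CPM in 1/7MC and 19.5, 36.8 and 34.4 CPM in MC. The 2 high MC libraries are those counted with other gene models, and MC replicate 1 lay within the range of 1/7MC+Pyr+FGF and just above that of 1/7MC+Pyr. The log2 ratio of MC replicates 2 and 3 over MC replicate 1 was 0.87 for TRIM71 and 0.86 for DPPA4, above the 95th percentile of 0.66 over all genes tested, with a median of 0.02. Whether the gene models account for these ratios was not tested.

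The remaining 3 genes were rare transcripts. TERT (ENSBTAG00000012567), the catalytic subunit of telomerase, had 3.77, 6.53 and 4.68 CPM in 1/7MC+Pyr+FGF, 7.85, 5.52 and 6.43 CPM in 1/7MC+Pyr, 2.93, 3.42 and 3.64 CPM in 1/7MC, and 5.46, 6.26 and 4.97 CPM in MC. All 1/7MC values were below all others, and the other groups overlapped. GDF3 (ENSBTAG00000023192) lies beside NANOG in the ARS-UCD2.0 gene table, on the same chromosome with only DPPA3 between them. It had 3.84, 3.12 and 2.92 CPM in 1/7MC+Pyr+FGF, 4.59, 2.65 and 2.66 CPM in 1/7MC+Pyr, 1.65, 2.02 and 2.02 CPM in 1/7MC, and 1.96, 2.07 and 2.97 CPM in MC. That is 49 to 164 counts a library, and every library with pyruvate was above every 1/7MC library, with MC overlapping both. DPPA4 (ENSBTAG00000038103) had 1.15, 0.968 and 0.992 CPM in 1/7MC+Pyr+FGF, 1.30, 0.776 and 1.03 CPM in 1/7MC+Pyr, 1.21, 0.530 and 1.04 CPM in 1/7MC, and 0.924, 1.85 and 1.67 CPM in MC. With 20 to 58 counts a library its groups all overlapped. Its neighbour and binding partner DPPA2 had 0 counts in 10 libraries and 2 counts in each of 1/7MC+Pyr replicate 2 and MC replicate 3, too few to test.

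1/7MC was first set against MC, and neither label names a supplement. Most of the 9 regulators were lower in 1/7MC, and NANOG was the exception among the abundant ones. LIN28A fell to 312 ± 15.3 CPM in 1/7MC, against 585 ± 22.4 CPM in MC (SD, n = 3 each), and SALL4 fell to 259 ± 16.7 CPM in 1/7MC, against 432 ± 55.9 CPM in MC. NANOG averaged 40.4 ± 2.93 CPM in 1/7MC and 38.4 ± 3.81 CPM in MC. Of the 9 genes 0 rose and 6 fell at an adjusted p under 0.05 (edgeR, Benjamini-Hochberg over all genes tested), where 23.7% of all genes tested rose and 21.3% fell. In the same 6 genes all 1/7MC libraries were below all MC libraries, which held for 28.8% of all genes.

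The fold changes of the 6 genes in 1/7MC against MC ranged from 0.714 for POU5F1 to 0.342 for TRIM71. On the log2 scale LIN28A fell by 0.90 ± 0.10 (SE, adjusted p = 2.21e-05), PRDM14 by 0.65 ± 0.09 (adjusted p = 7.9e-05) and SALL4 by 0.74 ± 0.12 (adjusted p = 0.000261). TRIM71 fell by 1.55 ± 0.25 (adjusted p = 0.000285), POU5F1 by 0.49 ± 0.12 (adjusted p = 0.00693) and TERT by 0.74 ± 0.21 (adjusted p = 0.0127). The 95% interval of the fold of NANOG was 0.838 to 1.32, that of GDF3 0.556 to 1.20 and that of DPPA4 0.37 to 1.05, so these 3 were not distinguished from MC at this depth. With MC replicate 1 alone, 0 of the 9 rose and 4 fell, where 14% of all genes rose and 9.96% fell, and the change of TRIM71 shrank to -0.91. POU5F1 kept its size at -0.51 but had an adjusted p of 0.0585, and TERT at -0.70 had one of 0.104. TERT also had an adjusted p of 0.0529 without 1/7MC replicate 1 and of 0.052 without MC replicate 2. DPPA4 passed only without MC replicate 1, at -0.94 with an adjusted p of 0.0347.

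Markers of other cells and states differed between these groups as well. Of 29 fibroblast and feeder markers with an entry, 29 rose in 1/7MC, 26 of them also against MC replicate 1 alone, with a median log2 change of 1.92, and none of the defining 5, COL1A1, COL1A2, COL3A1, THY1 and PDGFRB, was at 0 in any library. The sum over the 29 markers was 26598 to 36605 CPM in 1/7MC, against 9428 to 9708 CPM in MC. Of 17 epithelial markers tested 14 fell, with EPCAM at 17.7 CPM in 1/7MC against 81.2 CPM in MC, and of 9 neural ectoderm markers 5 rose and 3 fell. Of 10 endothelial and blood markers 4 rose and 3 fell, and PECAM1, CDH5 and PTPRC were at or below 0.573 CPM in all 12 libraries. Whether a larger share of fibroblast RNA moves the levels of the 9 genes was not tested, and in bulk samples fewer cells of a type and less RNA per cell cannot be told apart.

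**Figure D2:**
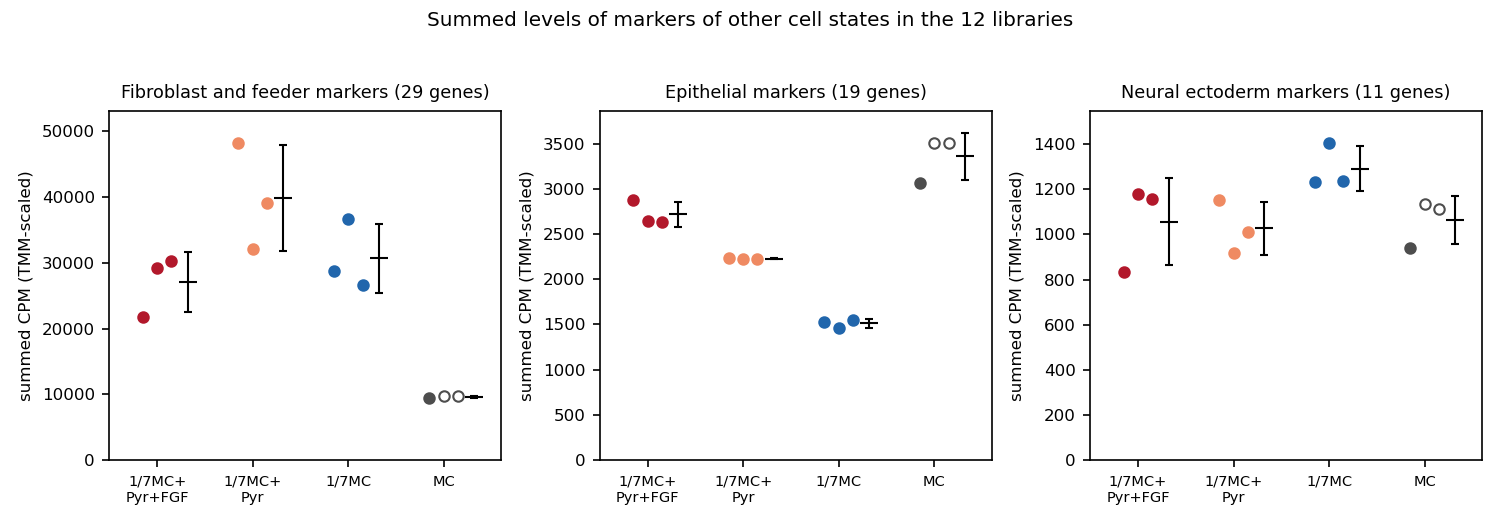
Summed CPM of fibroblast and feeder, epithelial and neural ectoderm markers in every library (linear axes from 0, points are libraries, bars mean ± SD, n = 3, open circles MC replicates 2 and 3). The 9 libraries outside MC have fibroblast sums of 21799 to 48288 CPM, against 9428 to 9708 CPM in MC, and the epithelial sums of 1/7MC, 1457 to 1553 CPM, are the lowest.

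1/7MC+Pyr was then set against 1/7MC, and by label the groups differ in pyruvate, a fuel of mitochondria and the end product of glycolysis. Differences due to pyruvate and differences between cultures cannot be told apart, because the replicates may be technical. Nearly all of the regulators were higher with pyruvate. NANOG averaged 73.0 ± 9.91 CPM in 1/7MC+Pyr and 40.4 ± 2.93 CPM in 1/7MC, PRDM14 averaged 113 ± 7.00 CPM in 1/7MC+Pyr and 59.7 ± 2.91 CPM in 1/7MC, and POU5F1 averaged 1165 ± 33.9 CPM in 1/7MC+Pyr and 781 ± 96.5 CPM in 1/7MC (SD, n = 3 each). Of the 9 genes 7 rose and 0 fell, where 8.08% of all genes tested rose and 10.1% fell. In 8 of the 9 every 1/7MC+Pyr library was above every 1/7MC library, as in 16.9% of all genes, and DPPA4 overlapped. The 1/7MC libraries are the same 3 as in the comparison with MC, so the falls there and the rises here are not independent.

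TERT had the largest fold of the 9 at 1.97 (95% interval 1.44 to 2.71, adjusted p = 0.00691), followed by PRDM14 at 1.89 (1.65 to 2.15, adjusted p = 2.55e-05) and NANOG at 1.8 (1.44 to 2.27, adjusted p = 0.00216). SALL4 rose 1.58-fold (adjusted p = 0.00203), POU5F1 1.49-fold (adjusted p = 0.00702) and LIN28A 1.38-fold (adjusted p = 0.00875). GDF3 passed narrowly at 1.73-fold (adjusted p = 0.0472). With 1 library left out it passed only without 1/7MC+Pyr replicate 2, and without one of the other 5 libraries its adjusted p was 0.0568 to 0.186, the highest of these without 1/7MC+Pyr replicate 1, where GDF3 is highest. TRIM71 had a fold of 1.66 (1.15 to 2.40, adjusted p = 0.0563), and an adjusted p of 0.021 in DESeq2 and of 0.0165 without MC replicates 2 and 3. DPPA4 had a fold interval of 0.656 to 1.92. Over the same libraries 7 of the fibroblast markers rose and 9 fell, and their sum was 32128 to 48288 CPM in 1/7MC+Pyr against 26598 to 36605 CPM in 1/7MC. Of 17 epithelial markers 7 rose and 0 fell, and of 9 neural ectoderm markers 1 rose and 6 fell, led by SIX6 at 0.786 CPM in 1/7MC+Pyr against 24.6 CPM in 1/7MC and PAX6 at 9.34 CPM in 1/7MC+Pyr against 68.7 CPM in 1/7MC. The part of these markers in the rises was not tested.

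**Figure D3:**
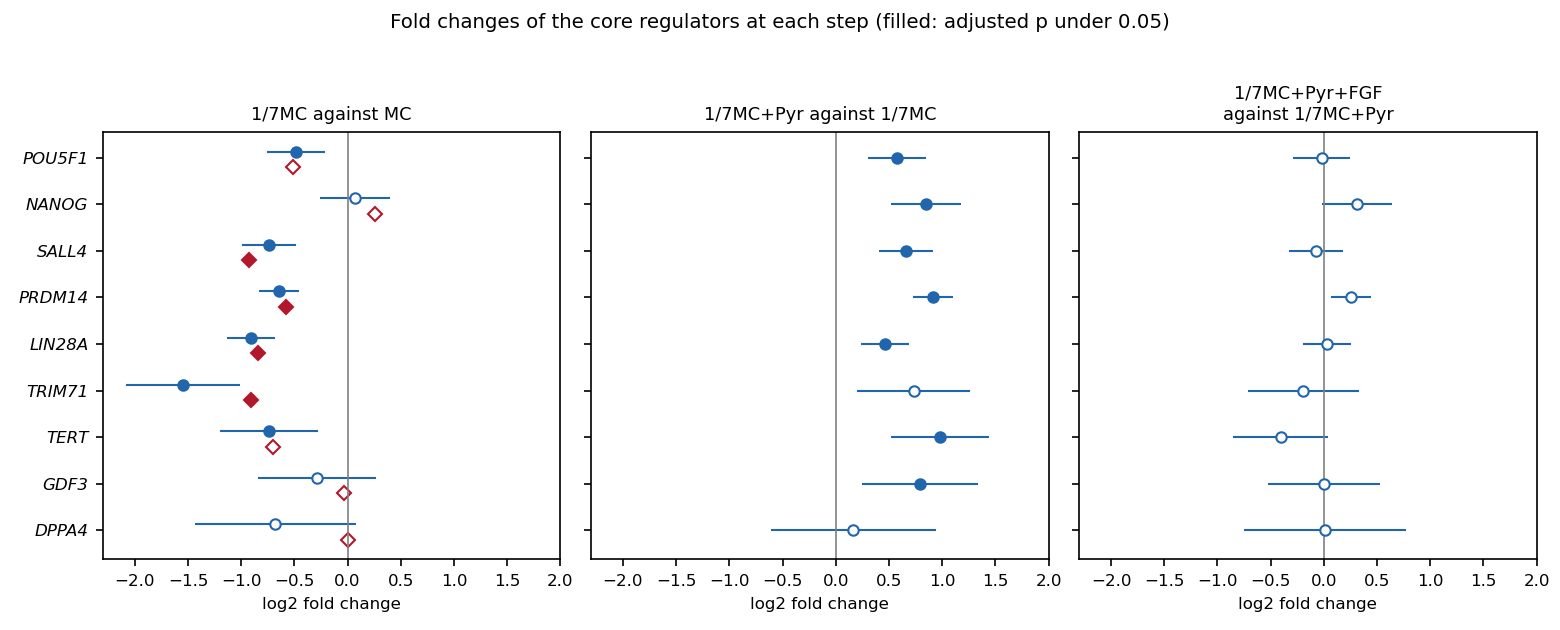
Log2 fold changes of the 9 genes (circles, with 95% intervals as lines) in 1/7MC against MC, 1/7MC+Pyr against 1/7MC and 1/7MC+Pyr+FGF against 1/7MC+Pyr. Filled symbols have an adjusted p under 0.05 in edgeR, and red diamonds give 1/7MC against MC replicate 1 alone. In the first panel 6 genes lie below 0 past the threshold, in the second 7 lie above it, and in the third none passes.

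1/7MC+Pyr+FGF was set against 1/7MC+Pyr, and by label the groups differ in the growth factor. In human stem cell media this factor maintains pluripotency through ERK signalling. Differences between cultures cannot be separated from those due to FGF here either. None of the 9 genes passed the test, where 0.639% of all genes tested rose and 2.12% fell. Both edgeR and DESeq2 called 0 rises and 0 falls, and at an unadjusted p under 0.05 edgeR gave 1 gene, PRDM14. In DESeq2 1.85% of all genes rose and 4.17% fell. PRDM14 averaged 134 ± 10.8 CPM in 1/7MC+Pyr+FGF and 113 ± 7.00 CPM in 1/7MC+Pyr, a fold of 1.19 (95% interval 1.05 to 1.36, adjusted p = 0.146). All 3 FGF libraries were above all 3 others for PRDM14 alone of the 9, as in 9.69% of all genes.

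The folds of the other regulators for FGF added to pyruvate follow with their intervals. These reflect the spread among these libraries alone, which may be technical, so they set no limit on differences between cultures. POU5F1 had a fold of 0.987 (0.819 to 1.19), SALL4 of 0.951 (0.799 to 1.13) and LIN28A of 1.02 (0.872 to 1.19). NANOG averaged 90.5 ± 19.8 CPM in 1/7MC+Pyr+FGF and 73.0 ± 9.91 CPM in 1/7MC+Pyr, a fold of 1.24 with an interval of 0.99 to 1.56. Without 1/7MC+Pyr+FGF replicate 1, its log2 change was 0.12 in place of 0.31. TERT had a fold of 0.756 (0.554 to 1.03) and TRIM71 of 0.875 (0.608 to 1.26). For the rare GDF3 and DPPA4 the intervals, 0.694 to 1.44 and 0.595 to 1.70, include folds of a size that passed in other comparisons. So do the intervals of NANOG, PRDM14, TERT and TRIM71. PRDM14 passed in 1/7MC+Pyr against MC at a log2 change of 0.27. The log2 intervals of POU5F1 and SALL4 for FGF reach -0.29 and -0.32, so they also include changes of that size. In this comparison 1 fibroblast marker rose and 8 fell, with sums of 21799 to 30191 CPM in 1/7MC+Pyr+FGF against 32128 to 48288 CPM in 1/7MC+Pyr. Of 17 epithelial markers 2 rose and 5 fell, and no neural ectoderm marker passed in edgeR or DESeq2, with 0 of 9 at an unadjusted p under 0.05. Of all genes, 0.639% rose and 2.12% fell in edgeR, and 1.85% rose and 4.17% fell in DESeq2. The part of these markers in the values above was not tested.

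Set against 1/7MC, 1/7MC+Pyr+FGF had 6 of the 9 genes higher past the threshold and 0 lower, where 11.9% of all genes rose and 15.7% fell. PRDM14 rose 2.24-fold (adjusted p = 4.02e-06), NANOG 2.24-fold (adjusted p = 0.000168) and GDF3 1.73-fold (adjusted p = 0.0333). POU5F1 rose 1.47-fold, SALL4 1.5-fold and LIN28A 1.40-fold, with adjusted p-values of 0.0059, 0.00284 and 0.00438. TERT had a fold of 1.49 (1.09 to 2.05, adjusted p = 0.0596) and TRIM71 of 1.45 (1.01 to 2.1, adjusted p = 0.121), and in both all 3 1/7MC+Pyr+FGF libraries were above all 3 1/7MC libraries, as in 21.5% of all genes. Without 1/7MC+Pyr+FGF replicate 1 the adjusted p of TERT was 0.0258. With 1 library left out GDF3 passed only without 1/7MC+Pyr+FGF replicate 3, at 0.0457, and had an adjusted p of 0.0563 to 0.118 without any one of the other 5. Markers of other cells differed here too, with 1 rise and 12 falls among 29 fibroblast markers, 6 rises and 3 falls among 17 epithelial ones, and 1 rise and 6 falls among 9 neural ectoderm ones. Their part in the rises was not tested.

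The supplemented groups were also set against MC, which shows how close each regulator came to its MC level. The 2 groups share the MC libraries, so their values are given side by side. NANOG was above MC in both, with a fold of 2.36 (95% interval 1.87 to 2.96, adjusted p = 9.41e-05) in 1/7MC+Pyr+FGF and of 1.90 (1.51 to 2.39, adjusted p = 0.000755) in 1/7MC+Pyr. PRDM14 had a fold of 1.43 (adjusted p = 0.000856) in 1/7MC+Pyr+FGF and of 1.20 (adjusted p = 0.0358) in 1/7MC+Pyr. LIN28A stayed below MC, with a fold of 0.749 (0.641 to 0.876, adjusted p = 0.0093) in 1/7MC+Pyr+FGF and of 0.736 (0.63 to 0.86, adjusted p = 0.00729) in 1/7MC+Pyr. TRIM71 had a fold of 0.497 (adjusted p = 0.00764) in 1/7MC+Pyr+FGF and of 0.568 (adjusted p = 0.0241) in 1/7MC+Pyr, and its 1/7MC+Pyr+FGF and MC libraries overlapped. In all, 2 of the 9 genes rose and 2 fell in 1/7MC+Pyr+FGF, where 17.1% of all genes rose and 15.4% fell, and the same 4 genes made up the 2 rises and 2 falls in 1/7MC+Pyr, where 15.2% rose and 13.2% fell.

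The other 5 genes were not distinguished from MC. POU5F1 had a fold of 1.05 (0.873 to 1.27) in 1/7MC+Pyr+FGF and of 1.07 (0.885 to 1.28) in 1/7MC+Pyr, and SALL4 had one of 0.899 (0.755 to 1.07) in 1/7MC+Pyr+FGF and of 0.945 (0.794 to 1.12) in 1/7MC+Pyr. For POU5F1 all 3 1/7MC+Pyr libraries were nonetheless above all 3 MC libraries, by less than the test could resolve, as in 21.3% of all genes. TERT, GDF3 and DPPA4 had folds of 0.894, 1.42 and 0.706 in 1/7MC+Pyr+FGF and of 1.18, 1.42 and 0.701 in 1/7MC+Pyr. Of the 29 fibroblast markers 26 rose and 0 fell in 1/7MC+Pyr+FGF and 27 rose and 0 fell in 1/7MC+Pyr, and of 17 epithelial markers 1 rose and 11 fell in 1/7MC+Pyr+FGF and 1 rose and 12 fell in 1/7MC+Pyr. Of 9 neural ectoderm markers 1 rose and 6 fell in each. Against MC replicate 1 alone the fibroblast markers had 22 rises and 0 falls in 1/7MC+Pyr+FGF and 24 rises and 0 falls in 1/7MC+Pyr, and the epithelial markers 1 rise and 11 falls in 1/7MC+Pyr+FGF and 0 rises and 8 falls in 1/7MC+Pyr. The neural ectoderm markers, 11 of them tested there, then had 0 rises and 5 falls in each. Their part in the comparisons with MC was not tested.

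Against MC replicate 1 alone, NANOG was the gene that passed in both groups. Its log2 change was 1.39 (adjusted p = 0.00122) in 1/7MC+Pyr+FGF and 1.11 (adjusted p = 0.00474) in 1/7MC+Pyr. PRDM14 passed in 1/7MC+Pyr+FGF (0.56, adjusted p = 0.0235) and not in 1/7MC+Pyr (0.34, adjusted p = 0.178). That made 2 rises and 0 falls among the 9 in 1/7MC+Pyr+FGF, where 5.86% of all genes rose and 6.13% fell. In 1/7MC+Pyr it made 1 rise and 0 falls, where 6.56% of all genes rose and 3.15% fell. LIN28A had a log2 change of -0.38 in 1/7MC+Pyr+FGF (adjusted p = 0.146) and of -0.37 in 1/7MC+Pyr (adjusted p = 0.18). Against all 3 MC libraries it was -0.42 in 1/7MC+Pyr+FGF and -0.44 in 1/7MC+Pyr. TRIM71 had -0.39 in 1/7MC+Pyr+FGF and -0.17 in 1/7MC+Pyr. With all MC libraries it had -1.01 in 1/7MC+Pyr+FGF and -0.82 in 1/7MC+Pyr. With all MC libraries, PRDM14 in 1/7MC+Pyr passed only when 1/7MC+Pyr replicate 2 was left out, at 0.0338, and had an adjusted p of 0.0717 to 0.117 without any one of the other 5. TRIM71 in 1/7MC+Pyr had an adjusted p of 0.056 to 0.104 without 1/7MC+Pyr replicate 2 or 3 or MC replicate 2 or 3.

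**Figure D4:**
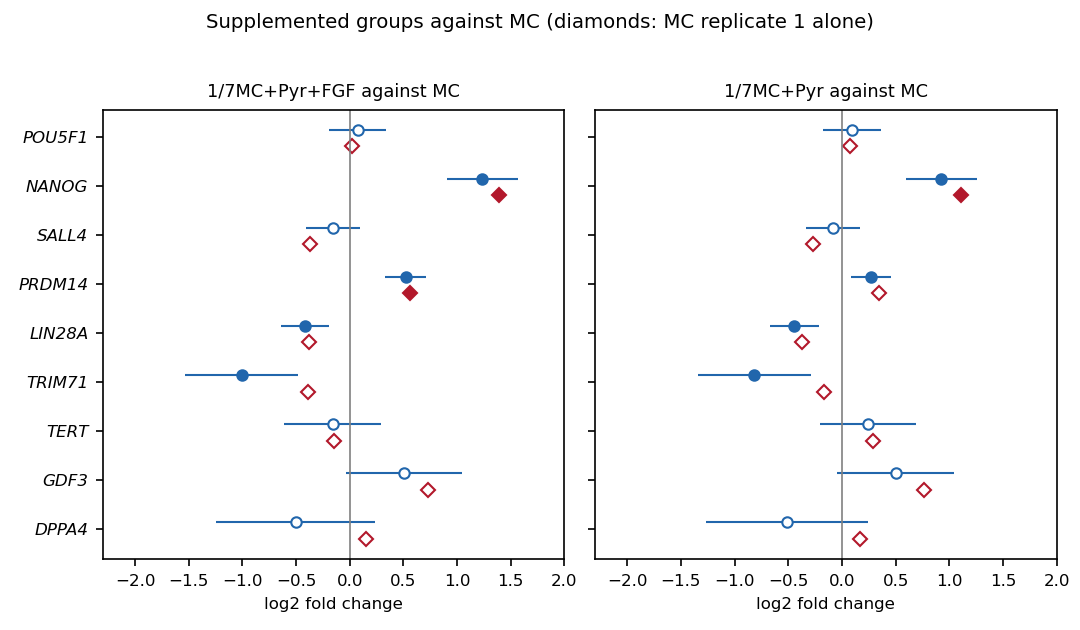
Log2 fold changes of the 9 genes in 1/7MC+Pyr+FGF (left) and 1/7MC+Pyr (right) against all 3 MC libraries (circles, lines are 95% intervals) and against MC replicate 1 alone (diamonds). Filled symbols have an adjusted p under 0.05. NANOG lies at 1.24 and 1.39 on the left and at 0.92 and 1.11 on the right, past the threshold in each case, whereas TRIM71 moves towards 0 when MC replicate 1 is used alone.

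The proportions of some regulators to POU5F1 differed between the groups in these libraries, with no difference past the threshold after adjustment. Taken as a ratio to POU5F1 in the same library, which removes any factor common to the library, NANOG had log2 values of -3.62, -3.66 and -3.74 in 1/7MC+Pyr+FGF, -4.19, -3.88 and -3.96 in 1/7MC+Pyr, -4.29, -4.16 and -4.35 in 1/7MC, and -5.04, -4.73 and -4.73 in MC. The ratio was thus lowest in MC and highest in 1/7MC+Pyr+FGF, without overlap between those 2 groups and the others. The share of all genes whose ratio to POU5F1 separates groups in this way was not computed. Its difference was 0.57 for 1/7MC against MC and 0.33 for 1/7MC+Pyr+FGF against 1/7MC+Pyr. Between 1/7MC+Pyr and 1/7MC, where the libraries overlapped, it was 0.26. Each of the first 2 differences has an exact two-sided permutation p of 0.1, the smallest that 3 against 3 allows, and 0.343 after Benjamini-Hochberg adjustment over 48 comparisons.

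The log2 ratio of LIN28A to POU5F1 averaged -1.39 ± 0.21 in 1/7MC+Pyr+FGF, -1.44 ± 0.07 in 1/7MC+Pyr, -1.32 ± 0.14 in 1/7MC and -0.90 ± 0.09 in MC (SD, n = 3 each). Every library outside MC was below every MC library, including MC replicate 1 at -0.99, and the 3 groups outside MC overlapped. Each of the 3 differences from MC has an exact two-sided permutation p of 0.1, and 0.343 after Benjamini-Hochberg adjustment. For PRDM14 the ratio averaged -3.09 ± 0.31 in 1/7MC+Pyr+FGF, -3.37 ± 0.12 in 1/7MC+Pyr, -3.70 ± 0.14 in 1/7MC and -3.55 ± 0.09 in MC. All libraries with pyruvate were above all 1/7MC libraries for this ratio. As for NANOG, the share of all genes that separate groups in these ratios was not computed. SALL4 overlapped between all pairs of groups, and its ratio in 1/7MC+Pyr+FGF replicate 1, -2.08, was the lowest of the 12.

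**Figure D5:**
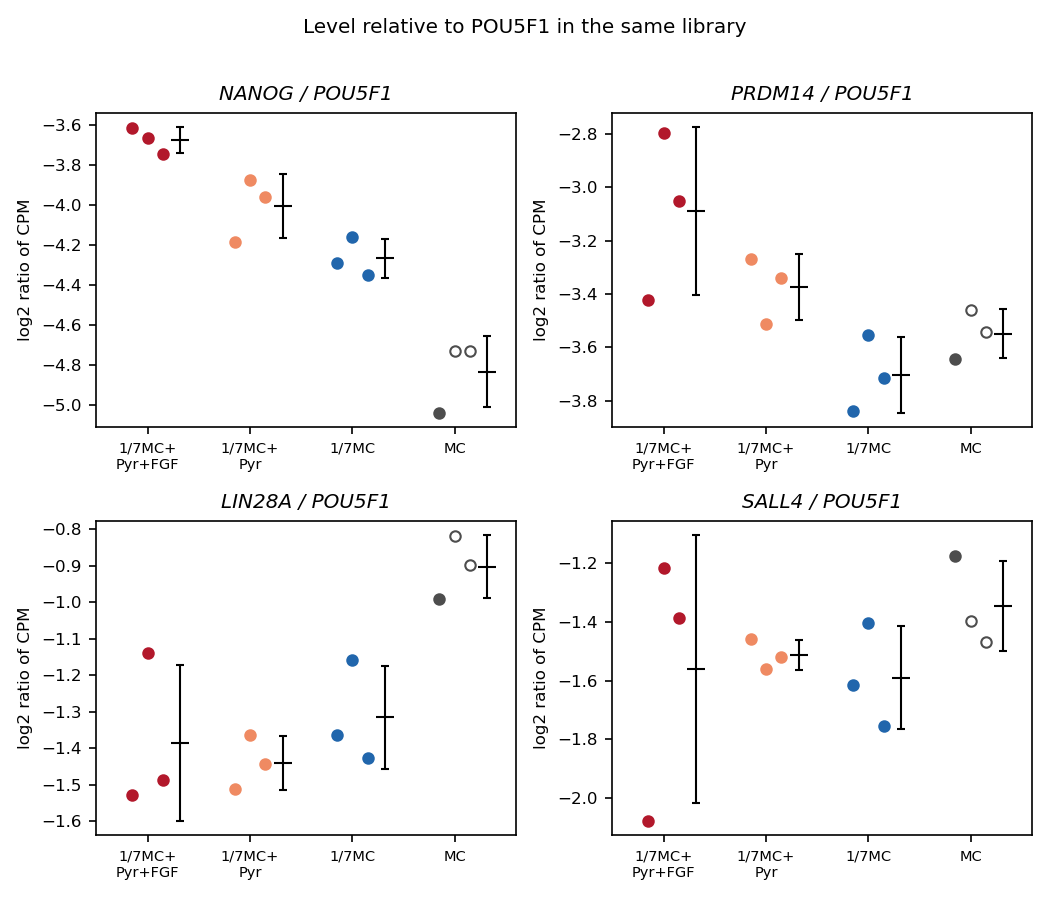
Log2 ratio of the CPM of NANOG, PRDM14, LIN28A and SALL4 to that of POU5F1 in the same library, by group (points are libraries, bars mean ± SD, n = 3, open circles MC replicates 2 and 3; the axes do not start at a common value). The NANOG ratio is -3.74 to -3.62 in 1/7MC+Pyr+FGF against -5.04 to -4.73 in MC, and the LIN28A ratio is -1.53 to -1.14 in 1/7MC+Pyr+FGF against -0.99 to -0.82 in MC.

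Genes that work with POU5F1 and NANOG were followed as a list of 27, of which 22 have an entry and 19 were tested. In 1/7MC against MC 0 rose and 10 fell, with a median log2 change of -0.54 beside 0.00 over all genes, of which 23.7% rose and 21.3% fell. Against MC replicate 1 alone 0 rose and 9 fell, beside 14% and 9.96% of all genes. ZSCAN10, a zinc-finger partner of OCT4 in mouse, averaged 61.4 CPM in 1/7MC and 131 CPM in MC, and the deubiquitinase USP44 averaged 41.3 CPM in 1/7MC and 85.5 CPM in MC. With pyruvate, against 1/7MC, 9 rose and 0 fell, beside 8.08% and 10.1% of all genes, with a median of 0.37 beside -0.01 over all genes. DNMT3B, a de novo DNA methyltransferase of pluripotent cells, averaged 1876 CPM in 1/7MC+Pyr and 1056 CPM in 1/7MC (log2 change 0.83 ± 0.09, SE, adjusted p = 5.32e-05), and JARID2, a Polycomb subunit, averaged 667 CPM in 1/7MC+Pyr and 330.1 CPM in 1/7MC (1.01 ± 0.17, adjusted p = 0.00162). With FGF added to pyruvate 0 rose and 2 fell, beside 0.639% and 2.12% of all genes. The 2 were DNMT3B (-0.54 ± 0.09, adjusted p = 0.0073) and ZSCAN10 (-0.48 ± 0.11, adjusted p = 0.0377), in libraries where POU5F1 had a fold of 0.987. In 1/7MC+Pyr+FGF against MC, 1 rose and 4 fell, beside 17.1% and 15.4% of all genes. In 1/7MC+Pyr against MC, 1 rose and 3 fell, beside 15.2% and 13.2%. The median log2 change was -0.19 in 1/7MC+Pyr+FGF and -0.17 in 1/7MC+Pyr. With MC replicate 1 alone it was -0.18 in 1/7MC+Pyr+FGF and -0.10 in 1/7MC+Pyr. KLF4 averaged 2.41 CPM in 1/7MC+Pyr+FGF and 2.69 CPM in 1/7MC+Pyr against 5.86 CPM in MC.

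Of 21 genes of the LIN28 and let-7 pathway, 3 rose and 10 fell in 1/7MC against MC, where 23.7% of all genes rose and 21.3% fell. Against MC replicate 1 alone 1 rose and 7 fell, where 14% of all genes rose and 9.96% fell. MYC, a proto-oncogene and let-7 target, rose by 1.58 ± 0.14 (log2, SE, adjusted p = 2.31e-06), to 30.9 CPM in 1/7MC against 10.3 CPM in MC. HMGA1, a chromatin protein, fell to 1854 CPM in 1/7MC against 2862 CPM in MC, and the RNA-binding IGF2BP2 to 76.6 CPM in 1/7MC against 109 CPM in MC. With pyruvate 3 rose and 0 fell, beside 8.08% and 10.1% of all genes, namely the phosphatase CDC25A, the exportin XPO5 that carries microRNA precursors out of the nucleus, and HMGA1, with log2 changes of 0.32, 0.39 and 0.27. With FGF added to pyruvate none of the 21 passed in edgeR or DESeq2, and MYC alone, at -0.40, had an unadjusted p under 0.05. Of all genes, 0.639% rose and 2.12% fell in edgeR, and 1.85% rose and 4.17% fell in DESeq2, so few calls would fall in a list of this size. LIN28B was not analysed here. Of 13 genes tested of the SALL family and the NuRD complex, 1 rose and 6 fell in 1/7MC against MC, beside 23.7% and 21.3% of all genes, and 0 rose and 4 fell against MC replicate 1 alone, beside 14% and 9.96%. With pyruvate 4 rose and 0 fell, beside 8.08% and 10.1% of all genes. The paralog SALL3 averaged 125 CPM in 1/7MC+Pyr, 52.5 CPM in 1/7MC and 142 CPM in MC. SALL1 and SALL2 also fell in 1/7MC against MC, by 0.69 and 0.87, and rose in 1/7MC+Pyr against 1/7MC, by 0.50 and 0.30. With FGF none of the 13 passed in edgeR or DESeq2, beside the same low shares of all genes, and 1 had an unadjusted p under 0.05.

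Of the 18 telomerase and shelterin genes, those that assemble or protect the telomere beside TERT, 3 rose and 5 fell in 1/7MC against MC, beside 23.7% and 21.3% of all genes. With MC replicate 1 alone 0 rose and 1 fell, where 14% of all genes rose and 9.96% fell. The one that kept its call was CTC1, a telomere capping protein, at 27.9 CPM in 1/7MC against 44.7 CPM in MC. RTEL1, a helicase, had a log2 change of -1.17 with all MC libraries and of -0.05 with MC replicate 1 alone. In 1/7MC+Pyr against 1/7MC, where TERT rose 1.97-fold, 0 rose and 1 fell, STN1, beside 8.08% and 10.1% of all genes. DKC1, the dyskerin that binds the telomerase RNA, averaged 223 ± 7.42 CPM in 1/7MC+Pyr and 188 ± 16.8 CPM in 1/7MC, with an adjusted p of 0.0692. Among 12 genes tested of NODAL and GDF signalling, the route GDF3 acts through, FOXH1, the DNA-binding partner of SMAD2, averaged 52.7 CPM in 1/7MC+Pyr+FGF, 71.4 CPM in 1/7MC+Pyr, 49.5 CPM in 1/7MC and 82.2 CPM in MC. It fell in 1/7MC against MC by 0.73 ± 0.10 (SE, adjusted p = 0.000124), rose in 1/7MC+Pyr against 1/7MC by 0.53 ± 0.10 (adjusted p = 0.00412), and fell in 1/7MC+Pyr+FGF against 1/7MC+Pyr by 0.44 ± 0.10 (adjusted p = 0.0441). The NODAL target LEFTY2 rose by 1.5 ± 0.34 in 1/7MC+Pyr against 1/7MC (adjusted p = 0.0102), at 2.07 CPM in 1/7MC+Pyr against 0.735 CPM in 1/7MC, while NODAL itself had 2 to 15 counts a library and was not tested. In this list 2 rose and 3 fell in 1/7MC against MC, beside 23.7% and 21.3% of all genes, and 1 rose and 2 fell of 13 tested against MC replicate 1 alone, beside 14% and 9.96%. With pyruvate 2 rose and 0 fell, beside 8.08% and 10.1% of all genes, and with FGF 0 rose and 1 fell, beside 0.639% and 2.12%.

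Of 7 genes tested that act with PRDM14 or in germ cell specification, 2 rose and 4 fell in 1/7MC against MC, where 23.7% of all genes rose and 21.3% fell. Against MC replicate 1 alone, with 8 genes tested, 1 rose and 4 fell, where 14% of all genes rose and 9.96% fell. With pyruvate 1 rose and 2 fell, beside 8.08% and 10.1% of all genes, and with FGF added to pyruvate 0 rose and 1 fell, beside 0.639% and 2.12%. KIT, the receptor of stem cell factor, averaged 10.1 CPM in 1/7MC+Pyr+FGF, 17.4 CPM in 1/7MC+Pyr, 14.7 CPM in 1/7MC and 40.0 CPM in MC. It fell by 1.44 ± 0.13 (log2, SE) in 1/7MC against MC (adjusted p = 2.28e-06) and by 0.78 ± 0.13 in 1/7MC+Pyr+FGF against 1/7MC+Pyr (adjusted p = 0.00772), where PRDM14 had a fold of 1.19. PRDM1, a related repressor of the germ line, rose to 10.4 CPM in 1/7MC against 5.73 CPM in MC. CBFA2T2, the corepressor through which PRDM14 acts in mouse, had log2 changes of 0.72 against all MC libraries and of -0.19 against MC replicate 1 alone, neither past the threshold.

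Genes with the pattern most like each regulator were found by the root mean square difference of centred log2 CPM over the 10 libraries other than MC replicates 2 and 3, among 12369 genes with a mean of at least 1 CPM. The smallest difference was 0.062, between LIN28A and PXK, followed by 0.064 between SALL4 and DIAPH1. POU5F1 was closest to IFT57 (0.105) and LARP7 (0.106), against a median of 0.359 over all genes. NANOG was closest to TNNC1 (0.186) and ISG12(B) (0.202), against a median of 0.597. Being picked as the smallest, such differences lie below the median by construction. PRDM14 was closest to CD9 (0.087) and CLMP (0.092), SALL4 next to ASPHD2 (0.083), LIN28A next to UHRF2 (0.083), TRIM71 to NACC2 (0.080) and POM121C (0.089), and TERT to RTN4RL2 (0.133) and FOXI3 (0.135). GDF3 was closest to EPHX1 (0.176) and F3 (0.205), and DPPA4 to ZNF250 (0.178) and YIF1B (0.205). Among the 9 genes themselves the closest pairs were SALL4 with TRIM71 at 0.163, TRIM71 with TERT at 0.167, POU5F1 with LIN28A at 0.173 and SALL4 with LIN28A at 0.179. POU5F1 and NANOG differed by 0.401, above the median of 0.359 for POU5F1 and below that of 0.597 for NANOG. The points share their libraries, depth and group structure, so these values describe likeness in this set only.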

How the data were processed

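Poly-A selected RNA was sequenced in 12 libraries. The submitters' processing notes name HISAT2 2.1.0, featureCounts, Subread 2.0, fastp 0.19.7 and the build bosTau9; order, settings, annotation and any use of strand are not given in the sources used here. The authors deposited whole-number counts per gene, with no normalisation. The second deposited table holds a signal equal to count over length times a constant of 4.94, without correction for depth; it was rescaled to a sum of 1000000 per library for levels per length.

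Of 19285 entries, 400 sharing an Ensembl or Entrez identifier with another entry were left out (1.07% to 1.40% of a library's counts). Entrez identifiers were matched to symbols through a RefSeq gene table of ARS-UCD2.0, for 19195 entries; that is another build, so no coordinates are given. Counts were normalised by TMM (factors 0.968 to 1.04), filtered with filterByExpr and tested in edgeR 4.0.16 with its quasi-likelihood F test, all 12 libraries in 1 fit with 1 coefficient per group and Benjamini-Hochberg adjustment over 13920 genes. On MC replicate 1 alone, 14361 genes were tested. All 6 pairs of groups were compared at an adjusted p under 0.05. Rose and fell are used only for genes past that threshold. The SE is the log2 fold change over the square root of F, and the interval of a fold is at 95%. Ratios to POU5F1 were compared by exact two-sided permutation tests.

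The members and the gene lists were chosen with earlier results of these data known, so counts over them are descriptions. Named genes were all 9 members and the 2 genes most like each member. Per list they were at most the 4 with the smallest adjusted p in a comparison. DPPA2, DKC1, NODAL and CBFA2T2 were added. SOX2 and LIN28B were to be added too but were not analysed. Fibroblast, epithelial, neural, endothelial and blood lists served as markers of other cells. Replicate numbers did not pair the libraries, so no block was used. Alternatives were other size factors, filters, DESeq2 1.42.0, limma 3.58.1 on the rescaled signal with a pseudocount of 0.1, fits on the compared groups, the replicate block and leaving out each library. Versions were Python 3.11.15, matplotlib 3.10.9 and R 4.3.3.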

Additional observations from a re-analysis of the deposited data

How the results depend on the processing

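No fold change of the 9 genes that passed reversed under any alternative run. The counts of members moved in the comparisons with MC. In 1/7MC+Pyr against MC, where 2 rose and 2 fell, 1 rose under the stricter filter, with the replicate block and with MC replicate 1 alone, and 1 to 2 rose when a library was left out. There 1 fell in the fit of the compared groups alone and on the rescaled signal, 0 fell with MC replicate 1 alone, and 1 to 2 fell when a library was left out. In 1/7MC+Pyr+FGF against MC, 0 fell with MC replicate 1 alone. Of all genes tested in 1/7MC+Pyr against MC, 14% rose under the stricter filter and 14.2% with the replicate block. There 9.45% fell in the fit of the compared groups and 8.86% on the rescaled signal. With 1 library of the compared groups left out, 10.4% to 21.1% rose and 7.82% to 15.4% fell. Leaving out 1 library gave 5 to 7 falls among the 9 in 1/7MC against MC, beside 16.2% to 22.1% of all genes. In 1/7MC+Pyr against 1/7MC it gave 6 to 7 rises, beside 4.09% to 7.79%. In 1/7MC+Pyr+FGF against 1/7MC it gave 5 to 6 rises, beside 7.48% to 9.7%. RLE size factors and keeping the entries with a shared identifier changed no call. GDF3 in 1/7MC+Pyr against 1/7MC missed the threshold with no filter (adjusted p = 0.0532), the stricter filter (0.0517), the rescaled signal (0.0543) and the replicate block (0.0814). Its rise in 1/7MC+Pyr+FGF missed it on the rescaled signal (0.0561) and with the block (0.0567). TERT in 1/7MC against MC missed it on the rescaled signal (0.0523), and TERT in 1/7MC+Pyr+FGF against 1/7MC passed in DESeq2 (0.0426). TRIM71 in 1/7MC+Pyr against 1/7MC passed in the edgeR fit of the compared groups alone (adjusted p = 0.00154). With 1 library of those groups left out it missed the threshold each time, with an adjusted p of 0.0522 to 0.161. The cause of these shifts was not tested. With the replicate block 6 members fell in 1/7MC against MC, beside 20% of all genes. In 1/7MC+Pyr against 1/7MC 6 members rose with it, beside 6.8%. The numbers did not pair libraries, since same-numbered libraries had correlations of deviations of -0.316 to 0.333, 2 of 18 over 0.1. DPPA4 and GDF3 rest on 20 to 164 counts a library.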
